A study of Mus musculus with 12 samples.

Results

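The genes described are the zinc finger genes of the Zfp, Zbtb, Zscan, Zkscan, Zfpm, Klf and Sp families in sorted cells of the embryonic mouse cortex. They were chosen by symbol alone from the coding gene table, which lists 4859 genes, and 72 genes matched. Of these, 48 carry a numbered Zfp symbol, 8 are Zbtb genes, 5 are Sp genes, 4 are Klf genes, 3 are Zfp36 genes, 2 are Zfpm genes and 2 are Zscan or Zkscan genes. Their levels are given as FPKM, fragments per kilobase of transcript scaled to the mapped fragments of a library, a unit that already allows for transcript length.

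Bulk RNA-seq was performed on cerebral cortex of embryos carrying the transgene Tg(Ebf2-EGFP)FB58Gsat, in which EGFP marks cells that express Ebf2. FACS gave an Ebf2-EGFP+ and an Ebf2-EGFP- population from each of 3 ages, E11.5, then E13.5, then E15.5, with 2 libraries in each of the 6 groups and 12 libraries in all. EGFP-positive embryos of several dams were pooled for each experiment, and both populations of a stage were sorted from such embryos. The study followed preplate and Cajal-Retzius (CR) neurons, and asked which genes set the Ebf2-EGFP+ cells apart from the rest of the cortex and how that changed over development. Ebf2-EGFP- cells are a mixture of progenitors and other neurons whose make-up changes with age. The paper describes Ebf2-EGFP+ cells as mostly preplate neurons, subplate and CR neurons together, at E11.5, and as mostly CR neurons by E15.5. In both populations, therefore, fewer cells of a type and less RNA per cell cannot be told apart.

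Zinc finger proteins of the C2H2 type fold short loops around a zinc ion and use arrays of such fingers to bind DNA. Sp and Klf proteins bind GC-rich and CACCC sequences in promoters, Zbtb proteins join the fingers to a BTB domain that recruits co-repressors, and many numbered Zfp proteins carry a KRAB or SCAN domain. Zfpm proteins bind GATA factors. Zfp36 proteins are a different class, with CCCH fingers that bind AU-rich RNA and promote its decay, and the symbol rule took them in. In the developing cortex, members of these families act in progenitor division, neuronal differentiation, areal patterning and axon growth.

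The sorted populations carried their markers. All 9 CR markers were higher in Ebf2-EGFP+ cells at every stage, with a summed level of 645 to 693 FPKM against 14.2 to 15.8 FPKM at E11.5 and 734 to 1262 FPKM against 64.2 to 84.4 FPKM at E15.5. All 8 radial glia and all 5 cell cycle markers were lower in Ebf2-EGFP+ cells at every stage. The table holds only genes that the authors reported as differential on these libraries, so a difference between the populations at some stage was a condition for being listed. For that reason the main counts of members are given beside the share over all 4859 listed genes.

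At E11.5, 21 of the 72 members were higher and 29 were lower in Ebf2-EGFP+ cells (limma on log2(FPKM + 1), adjusted p under 0.05), against 36.8% and 44.9% of all listed genes (81.7% in either direction). At E13.5, 9 were higher and 40 lower, or 12.5% and 55.6% of the members, against 32.1% and 43.5% of all listed genes (75.6% in either direction). At E15.5, 8 were higher and 29 lower, or 11.1% and 40.3%, against 25.8% and 31.6% (57.4% in either direction). The members thus leaned to Ebf2-EGFP- cells from E13.5 on. Their median log2 difference was -0.187 at E11.5, beside -0.194 over all listed genes, and it was -0.448 beside -0.192 at E13.5 and -0.356 beside -0.111 at E15.5.

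These splits moved with the scaling of the libraries. Median-of-ratios scaling sets the libraries level on the median ratio of these same genes, so by construction the median of all listed genes came close to 0. It was -0.00289 in place of -0.194 at E11.5, -0.000351 in place of -0.192 at E13.5, and 0.023 in place of -0.111 at E15.5. The method assumes that most genes do not differ, and the listed genes were selected as differential. Which scaling is right therefore cannot be decided from them. With it 27 members were higher and 24 lower at E11.5, 12 higher and 25 lower at E13.5, and 11 higher and 24 lower at E15.5. Among the members more were thus lower than higher at the later stages with either scaling, while at E11.5 the larger side changed. Over all listed genes the scaled shares were 40.5% higher and 40.8% lower at E11.5, then 39.1% against 36.1%, then 32.9% against 27.2%, so that the larger side changed at both later stages. Read against non-overlap alone, the pair of Ebf2-EGFP+ libraries exceeded the Ebf2-EGFP- pair for 29, 13 and 11 members at the 3 stages (42.5%, 39.1% and 34.7% of all listed genes) and fell short of it for 35, 52 and 49 members (50.1%, 49.7% and 44.6%).

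**Figure D1:**
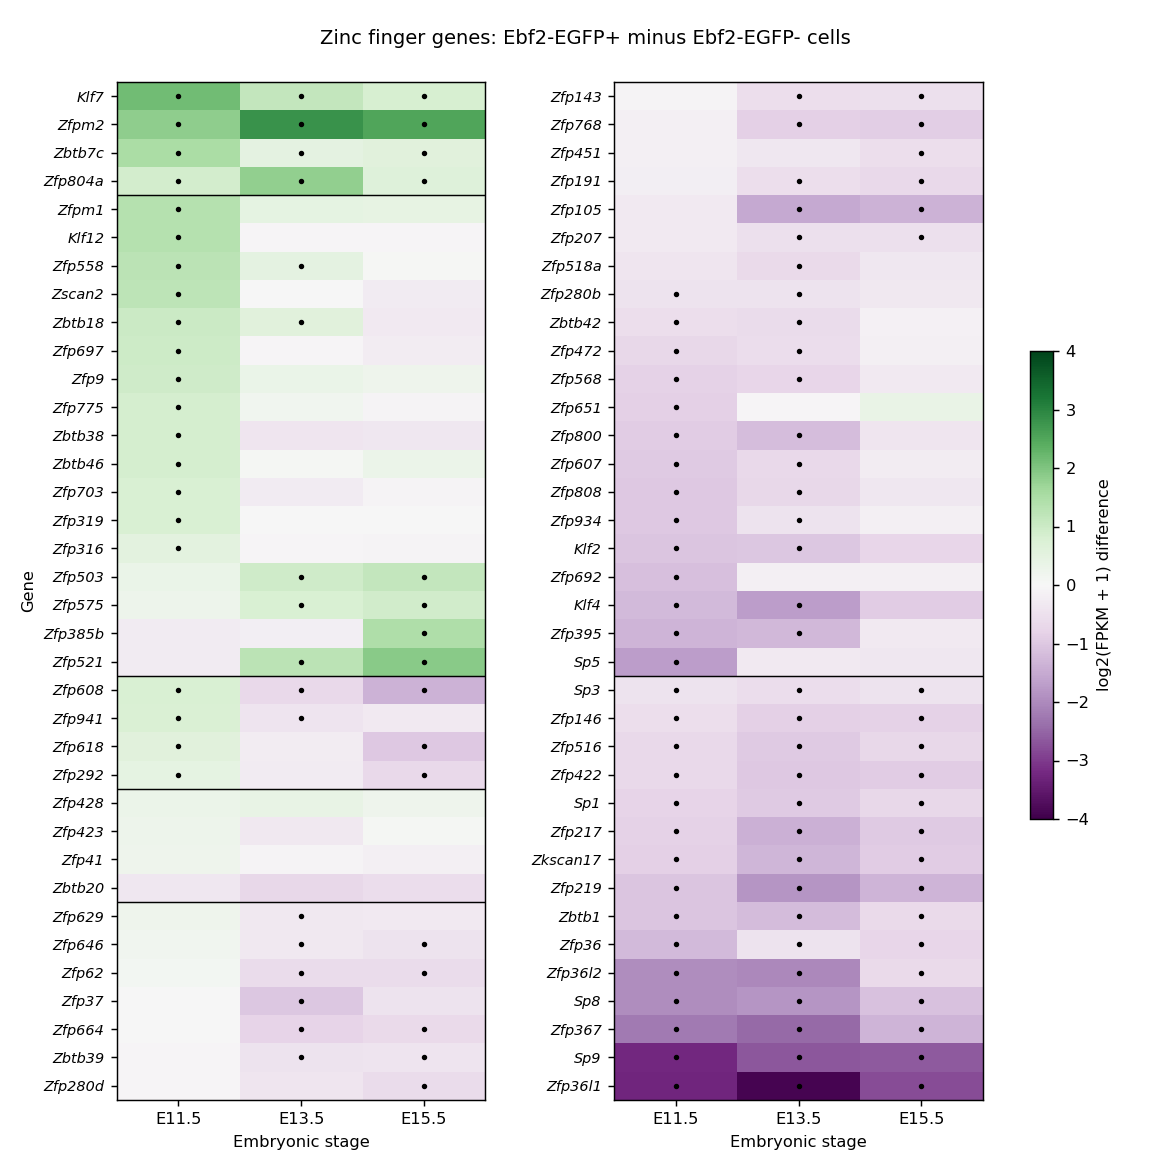
Log2(FPKM + 1) difference between Ebf2-EGFP+ and Ebf2-EGFP- cells for the 72 genes (rows) at 3 stages (columns), green where higher and purple where lower in Ebf2-EGFP+ cells, with a dot where the limma adjusted p was under 0.05. Lines separate, from the top left, the genes higher at all 3 stages (4), higher at 1 or 2 stages (17), called in opposite directions at different stages (4), never called (4), lower at 1 or 2 stages (28) and lower at all 3 stages (15).

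Over the 3 stages, 4 members were called as higher throughout in Ebf2-EGFP+ cells, or 5.56% of the members against 14.6% of all listed genes. These were Klf7, Zfpm2, Zfp804a and Zbtb7c. Lower at each stage were 15 members, or 20.8% against 21.8%: Sp1, Sp3, Sp8, Sp9, Zbtb1, Zfp36, Zfp36l1, Zfp36l2, Zfp146, Zfp217, Zfp219, Zfp367, Zfp422, Zfp516 and Zkscan17. The lower group holds 4 of the 5 Sp genes and all 3 Zfp36 genes, and no Klf gene. This make-up depended on the fit. With median-of-ratios scaling Sp3, Zfp36 and Zfp146 left the lower group, while Zfp503 and Zfpm1 joined the genes higher throughout. With the replicate block 21 members were lower throughout, Klf2, Klf4 and Zfp207 among them, and 5 were higher throughout, with Zfpm1 as the addition.

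Promoter sequences are shown for 4 of the members with large differences, 2 that were higher in Ebf2-EGFP+ cells at E11.5 (Klf7, Zbtb18) and 2 that were lower (Sp9, Zfp36l1). They are the 250 bases before the first listed RefSeq transcription start of each gene (GRCm38.p6), read along the strand of the gene, with the GC box GGGCGG, the core site of Sp and Klf proteins, in capitals on either strand. The Klf7 window is chr1:64121390-64121639 on the minus strand, Zbtb18 is chr1:177442101-177442350 on the plus strand, Sp9 is chr2:73271676-73271925 on the plus strand and Zfp36l1 is chr12:80113014-80113263 on the minus strand.
Klf7: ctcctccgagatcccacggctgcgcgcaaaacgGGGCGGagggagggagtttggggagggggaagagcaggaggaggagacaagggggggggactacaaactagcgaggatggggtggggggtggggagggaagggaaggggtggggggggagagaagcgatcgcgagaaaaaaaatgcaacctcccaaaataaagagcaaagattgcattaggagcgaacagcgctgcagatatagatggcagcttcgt
Zbtb18: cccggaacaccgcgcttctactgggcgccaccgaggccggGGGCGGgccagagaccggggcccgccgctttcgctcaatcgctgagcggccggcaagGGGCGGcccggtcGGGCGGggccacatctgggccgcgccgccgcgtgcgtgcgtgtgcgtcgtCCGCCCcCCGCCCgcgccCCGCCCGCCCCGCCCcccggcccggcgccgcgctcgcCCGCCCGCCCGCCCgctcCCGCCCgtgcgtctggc
Sp9: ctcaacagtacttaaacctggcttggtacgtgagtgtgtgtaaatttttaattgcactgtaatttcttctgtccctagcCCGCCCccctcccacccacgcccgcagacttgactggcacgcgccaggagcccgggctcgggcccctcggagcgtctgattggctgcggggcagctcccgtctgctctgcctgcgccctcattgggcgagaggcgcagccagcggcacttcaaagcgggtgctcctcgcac
Zfp36l1: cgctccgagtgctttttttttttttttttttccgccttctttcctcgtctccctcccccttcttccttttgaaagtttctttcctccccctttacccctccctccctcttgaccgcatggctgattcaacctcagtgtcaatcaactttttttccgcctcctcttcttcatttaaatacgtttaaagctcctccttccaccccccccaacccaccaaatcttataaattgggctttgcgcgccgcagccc

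The Zbtb18 window, the first of its 5 windows, held 12 matches, overlapping ones included, the Klf7 and Sp9 windows 1 each and the Zfp36l1 window 0. RefSeq promoter windows, which reach from 250 bases before to 50 after the start, were found for 57 of the 72 members, 81 windows in all. A GC box on either strand lay in 56.8% of them, against 64.1% of the 4764 windows of listed genes and 35.7% of all 32851 windows. The share was 54.2% of the 24 windows of members higher at E11.5 and 58.1% of the 31 windows of members lower at E11.5. The TATA box TATAAA lay in 12.3% of member windows and 7.22% of windows of listed genes, and the CACCC box CCACACCC in 2.47% and 3.84%, both counted on either strand. A match says only that these letters are in the window.

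Klf7, a Krüppel-like factor needed for axon growth in the developing nervous system, showed the largest difference of any member in favour of Ebf2-EGFP+ cells at E11.5 on the log2(FPKM + 1) scale. With a pseudocount of 0.1, the differences of Zbtb7c (2.60) and Zfpm2 (2.37) exceeded that of Klf7 (2.24). Klf7 lies at chr1:64029447-64122282 on the minus strand (GENCODE M21, GRCm38). Its level was 41.7 and 42.0 FPKM in the E11.5 Ebf2-EGFP+ libraries and 9.80 and 7.87 FPKM in the Ebf2-EGFP- libraries. At E13.5 it was 27.6 and 29.1 FPKM against 12.4 and 12.2 FPKM, and at E15.5 it was 39.1 and 27.7 FPKM against 18.3 and 17.4 FPKM. The populations did not overlap at any stage.

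The log2 difference of Klf7 was 2.13 at E11.5 (SE 0.17, limma adjusted p = 9.8e-07), 1.14 at E13.5 (adjusted p = 0.00011) and 0.84 at E15.5 (adjusted p = 0.0014). The difference between the populations fell by 1.29 from E11.5 to E15.5 (SE 0.24, limma adjusted p = 0.00088). Over this time Klf7 rose by 0.95 in Ebf2-EGFP- cells (limma adjusted p = 0.00023), while the change of -0.34 in Ebf2-EGFP+ cells was not called (adjusted p = 0.087). The E15.5 Ebf2-EGFP+ libraries differed most, and without replicate 1 there the change in Ebf2-EGFP+ cells was -0.58 and was called.

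**Figure D2:**
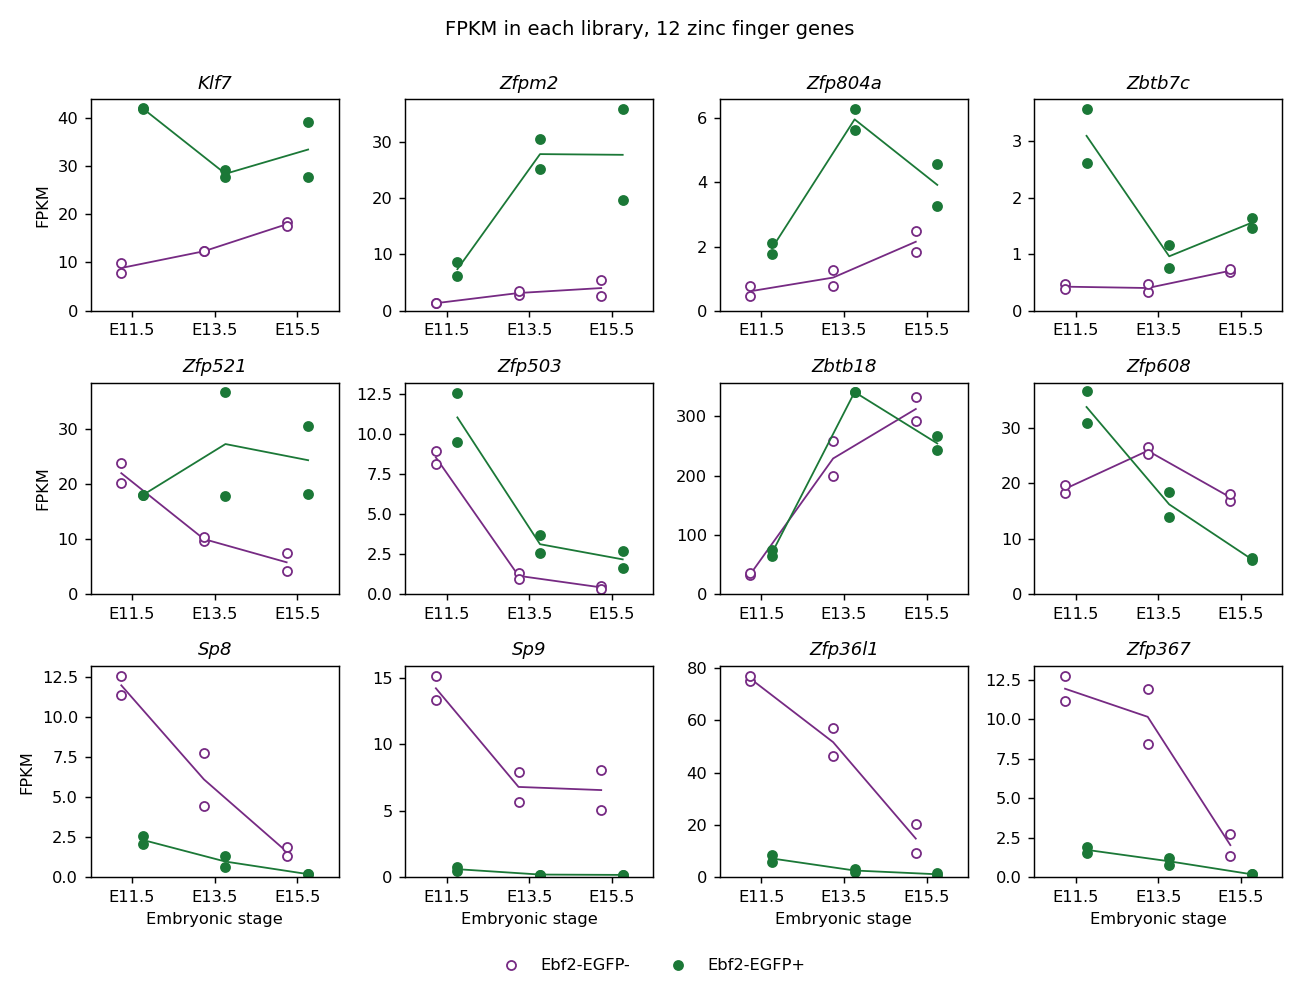
FPKM of 12 zinc finger genes in each library by stage, with filled green points for the 2 Ebf2-EGFP+ libraries and open purple points for the 2 Ebf2-EGFP- libraries, and lines through the group means, on linear axes that start at 0. Klf7, Zfpm2, Zfp804a and Zbtb7c stay higher in Ebf2-EGFP+ cells, Zfp521 and Zfp503 separate after E11.5, Zfp608 crosses, and Sp8, Sp9, Zfp36l1 and Zfp367 are lower in Ebf2-EGFP+ cells at every stage.

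The table of lncRNAs lists a transcript at the Klf7 locus, ENSMUST00000181595.1 of the gene Gm26649. In GENCODE M21 its 2 exons, chr1:64029463-64029843 and chr1:64030113-64032927, lie on the plus strand within the last exon of Klf7 (chr1:64029447-64035764, minus strand). The lowest coding base of the Klf7 transcript ENSMUST00000114086.7 is at 64035716, so the overlap is with the part of that exon that follows the stop codon. The sources used here do not state that reads were assigned by strand, and without strand the reads of the antisense pair cannot be told apart.

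Gm26649 was listed at 32.2 and 30.7 FPKM in the E11.5 Ebf2-EGFP+ libraries and at 6.78 and 5.52 FPKM in the Ebf2-EGFP- libraries. At E13.5 it was 24.6 and 26.2 FPKM against 9.49 and 12.7 FPKM, and at E15.5 it was 29.2 and 25.2 FPKM against 15.48 and 14.5 FPKM. In each of the 12 libraries its level was 0.693 to 1.04 times that of Klf7. Both were highest in the E11.5 Ebf2-EGFP+ libraries and lowest in the E11.5 Ebf2-EGFP- libraries. No test was made of this pair.

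**Figure D3:**
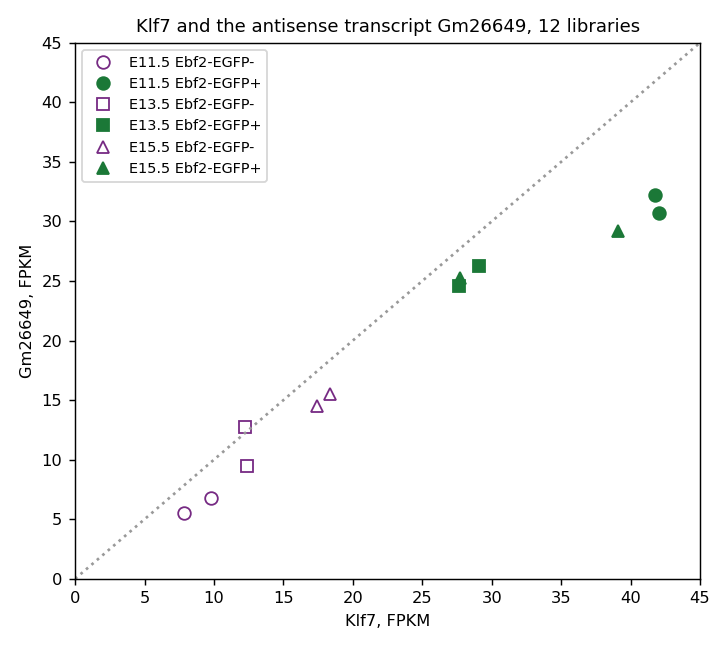
FPKM of Klf7 (x axis) and of the antisense transcript Gm26649 (y axis) in the 12 libraries, with colour and fill for the population, shape for the stage and a dotted line at equal FPKM. Gm26649 was at 0.693 to 1.04 times the Klf7 level, and most points lie below the line. The E11.5 Ebf2-EGFP- libraries are at the lower left and the E11.5 Ebf2-EGFP+ libraries at the upper right.

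Zfpm2 (Fog2), a cofactor of GATA factors at chr15:40655035-41104592, was the member with the largest difference in favour of Ebf2-EGFP+ cells at E13.5 and E15.5. It was at 6.09 and 8.63 FPKM in Ebf2-EGFP+ libraries at E11.5, 25.1 and 30.5 FPKM at E13.5, and 35.8 and 19.6 FPKM at E15.5. In Ebf2-EGFP- libraries it was at 1.30 and 1.34, then 2.85 and 3.41, then 5.40 and 2.62 FPKM. The log2 difference was 1.83, 2.80 and 2.52 at the 3 stages (limma adjusted p = 0.00015, 1.6e-05 and 4.4e-05). Zfpm2 rose from E11.5 to E15.5 in Ebf2-EGFP+ cells by 1.74 (adjusted p = 0.00028) and in Ebf2-EGFP- cells by 1.05 (adjusted p = 0.0065), the latter not called without E15.5 Ebf2-EGFP- replicate 1 (0.64).

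The change of the Zfpm2 difference from E11.5 to E15.5 was 0.68 (limma adjusted p = 0.185), and with the replicate number as a block its adjusted p was 0.010. Its relative Zfpm1 (Fog1) was at 4.43 and 5.25 FPKM against 1.25 and 1.25 FPKM at E11.5, a log2 difference of 1.37 (adjusted p = 6.5e-05). At E13.5 and E15.5 the Zfpm1 difference was 0.47 and 0.43 (adjusted p = 0.052 and 0.085), called in both cases with the replicate block (adjusted p = 0.0083 and 0.016). Both were also called with median-of-ratios scaling (0.66 and 0.59, limma adjusted p = 0.0087 and 0.021), and the E13.5 value was called with a pseudocount of 0.1 (0.71, limma adjusted p = 0.043).

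Zfp804a, the mouse counterpart of a gene associated with schizophrenia in people, peaked at E13.5 in Ebf2-EGFP+ cells. Its levels there were 1.77 and 2.12 FPKM at E11.5, 5.64 and 6.30 FPKM at E13.5, and 3.26 and 4.58 FPKM at E15.5, against 0.45 and 0.76, 0.78 and 1.28, and 1.82 and 2.48 FPKM in Ebf2-EGFP- cells. The log2 difference was 0.88, 1.79 and 0.64 (limma adjusted p = 0.0014, 1.7e-05 and 0.016). At E15.5 it was not called without Ebf2-EGFP- replicate 1 (0.49) or Ebf2-EGFP+ replicate 2 (0.45). Zbtb7c, a BTB zinc finger gene, was at 3.58 and 2.62 FPKM against 0.47 and 0.38 FPKM at E11.5, a log2 difference of 1.52 (adjusted p = 3.8e-06). It was lower in level later, and its log2 difference was 0.48 at E13.5 and 0.58 at E15.5 (limma adjusted p = 0.013 and 0.0062). The E13.5 value was not called without Ebf2-EGFP- replicate 1 (0.41) or Ebf2-EGFP+ replicate 2 (0.33).

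The other 3 Klf genes followed different courses. Klf12, which represses AP-2 alpha, was at 26.2 and 27.8 FPKM in Ebf2-EGFP+ cells at E11.5 against 9.92 and 10.01 FPKM, a log2 difference of 1.35 (limma adjusted p = 1.6e-05). By E13.5 it stood at 11.97 and 11.7 FPKM against 12.1 and 12.5 FPKM, and by E15.5 at 8.32 and 9.22 FPKM against 7.52 and 10.7 FPKM, where the populations overlapped. The Klf12 difference fell by 1.39 (SE 0.23, adjusted p = 0.00048), with a drop of 1.52 in Ebf2-EGFP+ cells (log2 change -1.52, adjusted p = 7.9e-06).

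Klf2 and Klf4, which are active in blood vessel endothelium among other cells, were lower in Ebf2-EGFP+ cells at the first 2 stages. Klf2 was at 0.48 and 0.19 FPKM against 2.41 and 1.21 FPKM at E11.5, and Klf4 at 1.43 and 1.03 FPKM against 6.11 and 2.82 FPKM. The log2 differences were -1.05 and -1.23 at E11.5 (limma adjusted p = 0.021 and 0.019) and -1.02 and -1.69 at E13.5 (adjusted p = 0.026 and 0.0038). At E15.5 they were -0.72 and -0.93 (limma adjusted p = 0.12 and 0.079), called only with the replicate block (adjusted p = 0.0016 and 0.0013).

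These values leaned on single libraries. At E11.5 neither Klf2 nor Klf4 was called without Ebf2-EGFP- replicate 1 (-0.74 and -0.78), without Ebf2-EGFP+ replicate 2 (-0.89 and -1.10) or with median-of-ratios scaling (-0.86 and -1.01). At E13.5 Klf2 was not called without Ebf2-EGFP- replicate 2 (-0.67), without Ebf2-EGFP+ replicate 1 (-0.56) or with the scaling (-0.79), and Klf4 ranged from -0.95 without Ebf2-EGFP+ replicate 1 to -2.42 without replicate 2. The 3 endothelial markers in the table (Cdh5, Kdr and Cldn5, of 6 on the list) summed to 4.39 to 7.19 FPKM in E11.5 Ebf2-EGFP- libraries and 0.322 to 0.536 FPKM in Ebf2-EGFP+ libraries. At E13.5 their sums overlapped, at 1.77 to 2.94 FPKM and 0.692 to 2.32 FPKM. At E11.5 the 6 meningeal markers summed to 110 to 129 FPKM in Ebf2-EGFP- libraries and 41.9 to 47.2 FPKM in Ebf2-EGFP+ libraries. At that stage the 4 erythroid markers in the table (of 6) summed to 1306 to 2752 FPKM against 32.9 to 97.1 FPKM. None of these markers was at 0 in both libraries of an E11.5 group, and their part in the Klf2 and Klf4 values was not tested.

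All 5 Sp genes were lower in E11.5 Ebf2-EGFP+ cells, and 4 of the 5 remained so at E13.5 and E15.5. Sp9, a regulator of interneuron development at chr2:73271925-73284706, was under 1 FPKM in every Ebf2-EGFP+ library. In Ebf2-EGFP- cells it was at 13.3 and 15.1 FPKM at E11.5, 7.93 and 5.64 FPKM at E13.5 and 8.09 and 5.02 FPKM at E15.5, against 0.76 and 0.46, 0.21 and 0.20, and 0.20 and 0.16 FPKM in Ebf2-EGFP+ cells. The log2 difference was -3.25, -2.68 and -2.65 (limma adjusted p = 3.3e-07, 3.7e-06 and 3.5e-06).

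Sp8, which acts in cortical patterning and interneuron development, fell with age in both populations. Over the 3 stages, Ebf2-EGFP- cells had 12.5 and 11.4, 7.74 and 4.46, and 1.87 and 1.32 FPKM, and Ebf2-EGFP+ cells had 2.56 and 2.10, 1.35 and 0.61, and 0.19 and 0.20 FPKM. The log2 difference was -1.96, -1.83 and -1.11 (limma adjusted p = 1.6e-05, 5.2e-05 and 0.0022). The 8 ganglionic eminence and interneuron markers summed to 177 to 234 FPKM in E11.5 Ebf2-EGFP- libraries and 9.55 to 12.7 FPKM in Ebf2-EGFP+ libraries, and to 74.6 to 85.6 against 2.69 to 3.42 FPKM at E15.5. None of them was at 0 in both libraries of a group, and their part in the Sp8 and Sp9 values was not tested.

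Sp1 and Sp3, broadly active GC box binding proteins, differed less. Sp1 was at 19.3 and 17.6 FPKM in Ebf2-EGFP- cells at E11.5 against 9.30 and 11.003 FPKM, and its log2 difference was -0.81, -0.95 and -0.70 at the 3 stages (limma adjusted p = 0.00079, 0.00036 and 0.0040). Sp3 was at 41.9 and 38.8 FPKM against 28.4 and 29.6 FPKM at E11.5, with log2 differences of -0.46, -0.56 and -0.47 (adjusted p = 0.024, 0.010 and 0.033). None of the 3 Sp3 calls held with median-of-ratios scaling (-0.21, -0.26 and -0.27), and at each stage leaving out single libraries also lost the call, with values from -0.32 to -0.49.

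Sp5, a target of Wnt signalling, was at 2.41 and 4.51 FPKM in E11.5 Ebf2-EGFP- cells against 0.21 and 0.48 FPKM, a log2 difference of -1.69 (limma adjusted p = 3.4e-05). Later it was under 1 FPKM in every library, with log2 differences of -0.30 and -0.35 (adjusted p = 0.25 and 0.20), the E15.5 value being called with the replicate block (adjusted p = 0.032). The change of the Sp5 difference, 1.34 (adjusted p = 0.0043), was lost with a pseudocount of 0.1 (1.67, adjusted p = 0.12).

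The 3 Zfp36 genes, whose proteins bind RNA, were lower in Ebf2-EGFP+ cells at all 3 stages. Zfp36l1, at chr12:80107754-80113013, had the largest difference of any member at E13.5 and E15.5 on the log2(FPKM + 1) scale. With a pseudocount of 0.1, the differences of Sp9 (-4.48 and -4.55) exceeded those of Zfp36l1 (-4.30 and -3.52). Zfp36l1 was at 74.9 and 76.9 FPKM in E11.5 Ebf2-EGFP- cells, 57.1 and 46.2 FPKM at E13.5, and 20.3 and 9.23 FPKM at E15.5, against 5.87 and 8.49, 3.17 and 1.99, and 1.48 and 0.81 FPKM in Ebf2-EGFP+ cells. The log2 difference was -3.25, -3.89 and -2.80 (SE 0.31 at each stage, limma adjusted p = 3.2e-06, 3.7e-06 and 2.8e-05).

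Zfp36l2 was at 14.3 and 12.99 FPKM against 2.64 and 2.95 FPKM at E11.5, and its log2 difference was -1.95, -2.01 and -0.63 (limma adjusted p = 4.6e-06, 9.7e-06 and 0.019). The Zfp36l2 difference rose by 1.32 from E11.5 to E15.5 (adjusted p = 0.0022), since the gene fell in Ebf2-EGFP- cells to 4.82 and 2.94 FPKM. Its E15.5 call was lost when any of 3 libraries was left out, and without Ebf2-EGFP- replicate 1 the difference was -0.35. Zfp36 itself was at 4.88 and 6.21 FPKM against 1.83 and 1.65 FPKM at E11.5, with log2 differences of -1.25, -0.45 and -0.72 (adjusted p = 8.8e-05, 0.049 and 0.0072). Its E13.5 call stood at the threshold and was lost with median-of-ratios scaling (-0.28) and without any of 7 libraries, and the E15.5 call was lost without Ebf2-EGFP+ replicate 1 (-0.54).

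Among the other members lower at every stage, Zfp367 was at 11.1 and 12.7 FPKM against 1.56 and 1.91 FPKM at E11.5 and at 2.72 and 1.35 FPKM against 0.18 and 0.20 FPKM at E15.5. Its log2 difference was -2.24, -2.46 and -1.32 (limma adjusted p = 4.8e-06, 7.4e-06 and 0.00061). Zfp219 was at 50.3 and 42.8 FPKM against 13.9 and 10.7 FPKM at E13.5, a log2 difference of -1.84 (adjusted p = 5.7e-05), and its difference at E15.5 was -1.33 (adjusted p = 0.00085). Zfp219 shares up to 175 exonic bases with the listed gene Arhgef40 on the other strand. Zfp105 was called at E13.5 and E15.5 (log2 difference -1.53 and -1.36, adjusted p = 0.00010 and 0.00036) but not at E11.5 (-0.31, adjusted p = 0.22). Over these stages the 5 cell cycle markers summed to 727 to 831 FPKM in Ebf2-EGFP- cells and 198 to 222 FPKM in E11.5 Ebf2-EGFP+ cells, and to 116 to 181 against 47.2 to 51.0 FPKM at E15.5, and their part in these values was not tested.

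Of 13 symbols put on a list for cortical and neural development, an older symbol of Zbtb18 among them, 7 are members. The list was chosen with earlier results of these data known. It leaves out Klf7, higher at every stage, and Sp8 and Sp9, lower at every stage, so its counts depend on that choice. At E11.5 5 of the 7 were higher in Ebf2-EGFP+ cells and 0 lower, where 36.8% of all listed genes were higher and 44.9% lower. At E13.5 and E15.5 the counts were 4 and 3 higher and 0 lower, beside 32.1% and 25.8% higher and 43.5% and 31.6% lower. With the replicate block, Zbtb20 was called as lower at E13.5 and E15.5 and Zbtb18 at E15.5. Zbtb18 (RP58), a repressor required for neuronal differentiation in the cortex, had the highest level of all members, with a mean of 206.6 FPKM over the 12 libraries. It was at 64.2 and 74.0 FPKM in Ebf2-EGFP+ cells at E11.5 against 31.9 and 35.4 FPKM, at 341.0 and 341.3 FPKM against 200 and 258 FPKM at E13.5, and at 266 and 242 FPKM against 292 and 333 FPKM at E15.5.

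Zbtb18 was thus ahead in Ebf2-EGFP+ cells at first (log2 difference 1.01, limma adjusted p = 0.00012, and 0.59 at E13.5, adjusted p = 0.0067, not called without Ebf2-EGFP- replicate 1, 0.40). At E15.5 the difference was -0.29 (adjusted p = 0.14), called as lower with the replicate block (adjusted p = 0.045). From E11.5 to E15.5 Zbtb18 rose by 3.18 in Ebf2-EGFP- cells (limma adjusted p = 3.6e-08) and by 1.87 in Ebf2-EGFP+ cells (adjusted p = 1.5e-06), and the difference fell by 1.31 (adjusted p = 0.00063). The rise in Ebf2-EGFP- cells was the largest rise over time of any member in either population. The 6 pan-neuronal markers summed to 643 to 699 FPKM in Ebf2-EGFP- libraries at E11.5 and 2084 to 2620 FPKM at E15.5, and their part in the rise was not tested.

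Zfp503 (Nolz1) and Zfp703 encode related repressors without the usual finger arrays. Zfp503, at chr14:21983959-21989601, was at 12.6 and 9.48 FPKM against 8.10 and 8.95 FPKM at E11.5, and then fell in both populations, less far in Ebf2-EGFP+ cells. It was at 3.68 and 2.54 FPKM against 1.34 and 0.93 FPKM at E13.5 and at 2.71 and 1.61 FPKM against 0.51 and 0.30 FPKM at E15.5. The log2 difference was 0.33 (limma adjusted p = 0.19), 0.94 (adjusted p = 0.0026) and 1.15 (adjusted p = 0.0011). The fall from E11.5 to E15.5 was -1.94 in Ebf2-EGFP+ cells (adjusted p = 1.2e-05) and -2.76 in Ebf2-EGFP- cells (adjusted p = 6.5e-07). With median-of-ratios scaling the E11.5 value of Zfp503 was 0.56 and was called.

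Zfp703 was higher in Ebf2-EGFP+ cells at E11.5, with 20.4 and 14.0 FPKM against 9.58 and 8.96 FPKM (log2 difference 0.80, limma adjusted p = 0.020). The call was lost when any of 3 libraries was left out, with values of 0.54 to 0.85. At E13.5 and E15.5 its libraries gave -0.28 and -0.09 (adjusted p = 0.39 and 0.81). Zbtb20, a transcriptional repressor that acts in hippocampal and cortical development, was not called between the populations at any stage (-0.36, -0.71 and -0.56, limma adjusted p = 0.34, 0.076 and 0.17). It was called as lower at the last 2 stages with the replicate block (limma adjusted p = 0.0023 and 0.011). It rose in Ebf2-EGFP- cells from 2.53 and 3.97 FPKM at E11.5 to 14.9 and 9.10 FPKM at E15.5 (log2 change 1.60, limma adjusted p = 0.00088).

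Zfp521 and Zfp423 encode proteins known to bind Ebf factors, and both have large finger arrays. Zfp521 was at 18.0 and 18.0 FPKM in Ebf2-EGFP+ cells at E11.5 against 23.7 and 20.2 FPKM (log2 difference -0.27, limma adjusted p = 0.45). It was at 17.8 and 36.8 FPKM against 9.59 and 10.4 FPKM at E13.5 (1.28, adjusted p = 0.0039) and at 30.5 and 18.2 FPKM against 7.37 and 4.15 FPKM at E15.5 (1.90, adjusted p = 0.00048). The 2 Ebf2-EGFP+ libraries of E13.5 differed widely, and without replicate 2 the difference was 0.77 and was not called.

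The Zfp521 difference rose by 2.18 from E11.5 to E15.5 (SE 0.46, limma adjusted p = 0.0020), the largest rise of any member on this scale, while with a pseudocount of 0.1 the rise of Zfp385b (2.70) exceeded it (2.35). Zfp521 fell by 1.80 in Ebf2-EGFP- cells (log2 change -1.80, adjusted p = 0.00025), and its change in Ebf2-EGFP+ cells was 0.37 (adjusted p = 0.31). Zfp423 fell in both, from 31.6 and 33.6 to 10.4 and 7.74 FPKM in Ebf2-EGFP+ cells (-1.75, adjusted p = 6.0e-06) and from 30.5 and 23.5 to 9.60 and 7.49 FPKM in Ebf2-EGFP- cells (-1.55, adjusted p = 1.0e-05). Its difference between the populations was 0.27, -0.34 and 0.07 and was not called at any stage (adjusted p = 0.18, 0.11 and 0.75), except at E13.5 with the replicate block (adjusted p = 0.034) and at E11.5 with median-of-ratios scaling (0.53).

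The difference between the populations changed from E11.5 to E15.5 for 36 of the 72 members, with 12 rising and 24 falling, or 16.7% and 33.3% of members against 32% and 27.7% of all listed genes (59.8% in either direction). With the replicate block 19 rose and 30 fell, beside 39.7% and 33.5% of all listed genes. The median change of the difference was -0.215 over the members and 0.17 over all listed genes. Zfp385b stood at 0.42 FPKM in both E11.5 Ebf2-EGFP+ libraries and at 5.66 and 2.74 FPKM in those of E15.5. In Ebf2-EGFP- cells Zfp385b was at 0.39 and 1.06 FPKM and at 1.04 and 0.61 FPKM. Its difference at E15.5 was 1.46 and the rise of the difference 1.71 (limma adjusted p = 0.00045 and 0.0016).

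**Figure D4:**
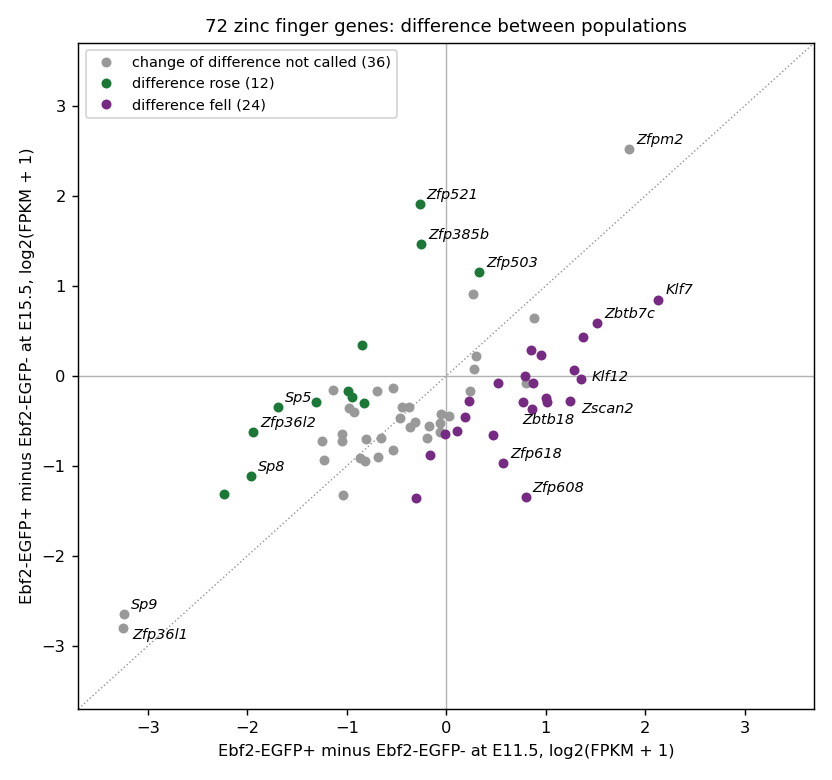
Log2(FPKM + 1) difference, Ebf2-EGFP+ minus Ebf2-EGFP-, at E11.5 (x axis) and at E15.5 (y axis) for the 72 genes, coloured by whether the difference rose (12), fell (24) or was not called as changed (36), with a dotted line at equal differences. Zfp521 and Zfp385b lie near 0 on the x axis and high on the y axis, Zfp608 and Zfp618 lie right of 0 and below 0, and Sp9 and Zfp36l1 stay at the lower left.

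Calls in opposite directions at different stages were found for 4 members, 5.56% against 7.78% of all listed genes, and for 7 members with the replicate block. Zfp608 was at 31.0 and 36.7 FPKM in Ebf2-EGFP+ cells at E11.5 against 18.3 and 19.8 FPKM, and at 6.08 and 6.44 FPKM against 16.8 and 18.1 FPKM at E15.5. Its log2 difference was 0.80, -0.66 and -1.35 (limma adjusted p = 0.00063, 0.0029 and 3.9e-05), and the difference fell by 2.14 (adjusted p = 2.5e-05). The E13.5 value was not called with median-of-ratios scaling (-0.36). Zfp608 fell in Ebf2-EGFP+ cells by 2.26 (log2 change -2.26, limma adjusted p = 3.4e-07).

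Zfp618, at chr4:62965573-63139708, was at 18.7 and 18.1 FPKM against 12.7 and 11.51 FPKM at E11.5 and at 1.47 and 1.03 FPKM against 3.62 and 3.18 FPKM at E15.5. Its log2 difference was 0.57 (limma adjusted p = 0.0062), -0.23 (adjusted p = 0.21) and -0.97 (adjusted p = 0.00039), the first not called without Ebf2-EGFP- replicate 2 (0.50). Its fall in Ebf2-EGFP+ cells, -3.11 (adjusted p = 5.8e-08), was the largest fall of any member in that population.

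Zfp292 and Zfp941, which were chosen after their values were seen, made up the 4. Zfp292 was at 23.7 and 25.2 FPKM against 16.6 and 18.2 FPKM at E11.5 (log2 difference 0.47, limma adjusted p = 0.012) and at 8.41 and 9.28 FPKM against 13.04 and 16.2 FPKM at E15.5 (-0.66, adjusted p = 0.0027). Its E11.5 value was not called without Ebf2-EGFP- replicate 1 (0.40) or Ebf2-EGFP+ replicate 2 (0.42), and its E13.5 value of -0.27 was called only with the block (adjusted p = 0.044). Zfp941 was at 2.10 and 2.66 FPKM against 0.87 and 1.07 FPKM at E11.5 (0.77, adjusted p = 0.00050) and at 0.72 and 0.38 FPKM against 1.14 and 1.00 FPKM at E13.5 (-0.42, adjusted p = 0.023). The latter was not called with median-of-ratios scaling (-0.29) or without Ebf2-EGFP- replicate 1 (-0.38) or Ebf2-EGFP+ replicate 2 (-0.26).

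Zscan2, a SCAN domain gene, was at 15.6 and 16.5 FPKM against 5.63 and 6.83 FPKM at E11.5 (log2 difference 1.24, limma adjusted p = 3.6e-05) and at 12.04 and 9.46 FPKM against 13.04 and 13.3 FPKM at E15.5 (-0.28, adjusted p = 0.18). Its difference fell by 1.52 (adjusted p = 0.00032). Zfp575 was called as higher in Ebf2-EGFP+ cells at E13.5 and E15.5 and was at 9.62 and 6.19 FPKM against 4.23 and 3.13 FPKM at E15.5 (0.91, adjusted p = 0.0024). It shares 99 exonic bases with the listed gene Ethe1 on the other strand.

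Most members fell with age. From E11.5 to E15.5, 46 members fell and 11 rose in Ebf2-EGFP+ cells, or 63.9% and 15.3%, against 42.1% and 33.3% of all listed genes (75.4% in either direction). In Ebf2-EGFP- cells 46 fell and 17 rose, or 63.9% and 23.6%, against 47.6% and 37.7% (85.4% in either direction). The median change of the members was -0.823 in the former and -0.748 in the latter, beside -0.177 and -0.319 over all listed genes. Median-of-ratios scaling moved the last 2 values to -0.0353 and -0.0949. With it 42 members fell and 13 rose in the former, beside 37.8% and 38.7% of all listed genes. In the latter 40 fell and 20 rose, beside 42.7% and 41%. In Ebf2-EGFP+ libraries the 5 cell cycle markers summed to 198 to 222 FPKM at E11.5 and 47.2 to 51.0 FPKM at E15.5. The 8 radial glia markers there summed to 406 to 430 FPKM and 89.0 to 152 FPKM. Their part in the falls was not tested.

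A fall was called in both populations for 38 members and a rise in both for 8, or 52.8% and 11.1% of the members against 32.7% and 24.6% of all listed genes. The 8 were Klf2, Zbtb18, Zbtb20, Zfp316, Zfp428, Zfp575, Zfp804a and Zfpm2. The rise of Klf2 in Ebf2-EGFP- cells (0.87, limma adjusted p = 0.046) was not called with a pseudocount of 0.1 (1.18, adjusted p = 0.069). Zfp575 rose by 1.99 in Ebf2-EGFP+ cells (limma adjusted p = 4.1e-06) and by 1.35 in Ebf2-EGFP- cells (adjusted p = 5.4e-05). Zfp385b rose by 1.81 in Ebf2-EGFP+ cells (adjusted p = 4.3e-05). Zbtb38, whose protein binds methylated DNA, rose in Ebf2-EGFP- cells by 1.58 (adjusted p = 4.9e-06), from 2.23 and 1.95 to 8.64 and 7.81 FPKM. On the log2(FPKM + 1) scale the largest falls in Ebf2-EGFP- cells were those of Zfp503, Zfp36l1 (-2.38, limma adjusted p = 2.2e-05) and Sp8 (-2.33, adjusted p = 3.6e-06).

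The populations moved in opposite directions for 3 members, which were chosen after their values were seen, or 4.17% of the members against 3.93% of all listed genes for a fall in Ebf2-EGFP+ and a rise in Ebf2-EGFP- cells. Zscan2 fell in Ebf2-EGFP+ cells (-0.55) and rose in Ebf2-EGFP- cells (0.98), and so did Zfp697 (-0.80 and 0.45) and Zfp319 (-0.40 and 0.39). Leaving out 1 library lost the call of Zfp697 in Ebf2-EGFP- cells in 5 cases (0.31 to 0.48), of Zfp319 in Ebf2-EGFP- cells in 6 (0.31 to 0.48) and in Ebf2-EGFP+ cells in 9 (-0.25 to -0.46), and of Zscan2 in Ebf2-EGFP+ cells in 2 (-0.51 and -0.39). With median-of-ratios scaling the falls of Zscan2 and Zfp319 in Ebf2-EGFP+ cells were not called (-0.32 and -0.16, limma adjusted p = 0.096 and 0.44), and with a pseudocount of 0.1 the rise of Zfp697 in Ebf2-EGFP- cells was not (0.58, adjusted p = 0.051). Group means that fell at both steps, from E11.5 to E13.5 and on to E15.5, were seen for 42 members in Ebf2-EGFP+ cells (58.3% against 36.9% of all listed genes) and 39 in Ebf2-EGFP- cells (54.2% against 42.5%). Group means that rose at both steps were seen for 7 and 12 members (9.72% and 16.7%, against 29.1% and 32.6%).

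**Figure D5:**
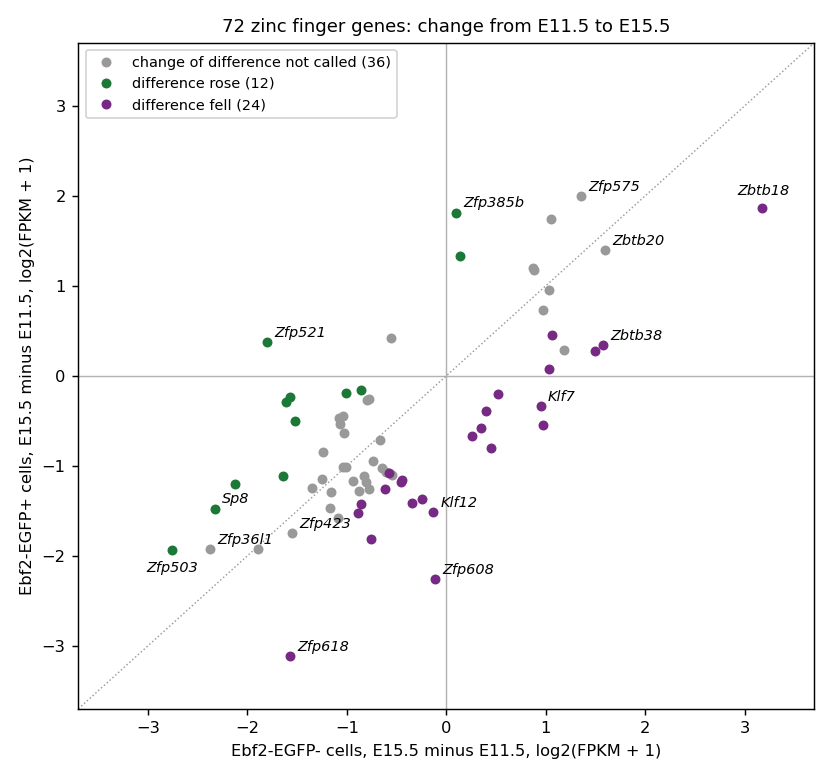
Change between E11.5 and E15.5, on the log2(FPKM + 1) scale, in Ebf2-EGFP- cells (x axis) and Ebf2-EGFP+ cells (y axis) for the 72 genes, coloured as in the plot of differences at both stages, with a dotted line at equal change. Most points lie at the lower left, where 38 genes fell in both populations, while Zbtb18 lies at the far right, Zfp385b and Zfp575 at the top and Zfp618 at the bottom.

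The members with the highest levels after Zbtb18 were Zfp207, Zfp428, Zfp664 and Zfp422. Zfp207, a spindle assembly protein, was at 119 and 108 FPKM against 139 and 144 FPKM at E11.5 (log2 difference -0.31, limma adjusted p = 0.080, called with the block, adjusted p = 0.014). It was lower in Ebf2-EGFP+ cells at E13.5 and E15.5 (-0.53 and -0.52, adjusted p = 0.0088 and 0.013). Neither call held with median-of-ratios scaling (-0.22 and -0.31), without Ebf2-EGFP- replicate 1 or Ebf2-EGFP+ replicate 2 at E13.5 (-0.38 and -0.42), or without Ebf2-EGFP- replicate 2 or Ebf2-EGFP+ replicate 1 at E15.5 (-0.50 and -0.39). Zfp422 was lower at each stage (-0.68, -0.99 and -0.91, adjusted p = 0.0016, 0.00018 and 0.00054).

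Zfp664 was not called at E11.5, with 80.3 and 70.1 FPKM against 83.2 and 69.4 FPKM (-0.02, limma adjusted p = 0.91), and lower later (-0.80 and -0.65, adjusted p = 0.00050 and 0.0030). Zfp428 was not called at any stage (0.30, 0.40 and 0.22, adjusted p = 0.35, 0.22 and 0.53), although with the block it was called as higher at E11.5 and E13.5 (adjusted p = 0.034 and 0.0084), and with median-of-ratios scaling at E13.5 (0.71, limma adjusted p = 0.026). The remaining member without a call was Zfp41, with 51.7 and 52.5 FPKM against 46.9 and 41.5 FPKM at E11.5 (0.24, adjusted p = 0.13), and it was called there with median-of-ratios scaling (0.49).

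Genes of the same machinery outside the symbol rule were described by counts. Of 32 co-repressor genes that zinc finger proteins recruit, 6 are listed. At E11.5 Bcor, Chd4 and Chd5 were higher in Ebf2-EGFP+ cells and Hdac1 and Rbbp7 lower, at E13.5 2 were higher and 3 lower, and at E15.5 0 were higher and 3 lower. Over all listed genes 36.8%, 32.1% and 25.8% were higher and 44.9%, 43.5% and 31.6% lower at the 3 stages. Hdac1, a histone deacetylase, was lower at each stage (-0.89, -1.27 and -1.24, limma adjusted p = 0.0016, 0.00018 and 0.00038). Bcor, a partner of BTB zinc finger proteins, turned from 0.42 at E11.5 to -0.67 and -0.95 (limma adjusted p = 0.028, 0.0023 and 0.00040). Of 70 other C2H2 genes, 45 are listed, and 14 were higher and 20 lower at E11.5, beside 36.8% and 44.9% of all listed genes. The counts were 13 and 18 at E13.5, beside 32.1% and 43.5%, and then 11 and 16 at E15.5, beside 25.8% and 31.6%. Their median log2 difference over the 3 stages was -0.289, then 0.0175, then -0.000249, where the members had -0.187, -0.448 and -0.356. With age, 29 of the 45 fell in the Ebf2-EGFP+ population and 31 in the Ebf2-EGFP- population, beside 42.1% and 47.6% of all listed genes. Their median changes were -0.702 and -1.24, beside -0.823 and -0.748 for the members.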

How the data were processed

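RNA from FACS-sorted Ebf2-EGFP+ and Ebf2-EGFP- cells was selected on oligo(dT) beads and sequenced, with 2 libraries in each of 6 groups. The authors deposited FPKM values per gene, made with TopHat2 2.0.8b and Cufflinks 2.2.0 on mm10, in tables that hold only genes they reported as differential (4859 coding genes). The tables also hold the authors' own fold changes, p-values and q-values, which were not used. Of the value columns, 0 could not be tied to a sample. Read counts were not analysed here, and no interval or floor that needs the depth of a single library was computed. Values of low genes put the relative depth of the libraries at 0.62 to 1.3 times that of E11.5 Ebf2-EGFP- replicate 1.

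Differences were tested with limma 3.58.1 in R 4.3.3 on log2(FPKM + 1), with all 12 libraries as 6 groups, moderation with a trend on mean level, two-sided tests and Benjamini-Hochberg adjustment over all 4859 genes in each comparison, called at an adjusted p under 0.05. Fold changes on this scale understate those of low genes. With 2 libraries a group, the p-values rest on a spread pooled over all 6 groups and moderated across genes, and reach no further than these samples. The pseudocount was 1. The adjustment ran over genes selected as differential on these same libraries, so the adjusted p-values are not those of an unselected set. The members and lists were chosen with earlier results of these data known. Named were all Klf and Sp genes, the 5 called members with the largest difference in each direction at each stage whose libraries did not overlap, the 3 with the largest changes in each direction, the 5 with the highest mean level and the members of the role lists (neural development, Ebf partners, CCCH proteins, blood and vessel, axon growth, pluripotency). Of 5 pluripotency genes, 0 are listed. Others were chosen after their values were seen: Zfp292, Zfp941, Zfp41, Zfp319, Zfp697 and the later stages or earlier stages of genes named for 1 stage.

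Libraries with the same replicate number at a stage deviated together (correlation 0.431, 0.534 and 0.431 at the 3 stages). The number was therefore taken as a pairing, and a fit with it as a block was made as an alternative. Calls are from the fit without the block unless stated. Other alternatives were pseudocounts of 0.1 and 0.5, median-of-ratios scaling, a mean of at least 1 FPKM, moderation without a trend, only the groups compared, stricter thresholds and leaving out each library. The fit was tested on simulated data for the E11.5 comparison over 4859 genes, where 74 of 100 genes changed by 1 on the log2 scale and 98 of 100 changed by 2 were recovered, with 8 false calls. The simulated noise was independent between libraries, and only 200 genes were changed. Of the listed genes 81.7% were called at E11.5, and same-numbered libraries deviated together. The simulated counts therefore give no error rate for the real comparisons. Gene positions came from GENCODE M21 (GRCm38) and promoter windows from RefSeq (GRCm38.p6), read with Python 3.11.15. Zfp191 and Zfp607 were matched under their newer symbols Zfp24 and Zfp607a, the latter with near-identical copies and therefore uncertain.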

Additional observations from a re-analysis of the deposited data

Results flagged for a closer look

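The difference between Ebf2-EGFP+ and Ebf2-EGFP- cells changed from E11.5 to E15.5 for the 12 named members below, by a test of the change itself (limma interaction, adjusted p under 0.05). The difference fell for Zfp608 (log2 change of the difference -2.14), Zfp618 (-1.54), Zscan2 (-1.52), Klf12 (-1.39), Zbtb18 (-1.31), Klf7 (-1.29), Zfp292 (-1.13) and Zfp941 (-1.07). It rose for Zfp36l2 (1.32), Sp5 (1.34), Zfp385b (1.71) and Zfp521 (2.18). Summed pan-neuronal markers in Ebf2-EGFP- cells went from 643 to 699 FPKM at E11.5 to 2084 to 2620 FPKM at E15.5, and their part in these changes was not tested.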

How the results depend on the processing

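Asking also for a 2-fold change left 8 members higher and 13 lower at E11.5, 4 and 15 at E13.5, 4 and 7 at E15.5, 6 rising and 12 falling in the change of the difference, and 10 rising and 25 falling in Ebf2-EGFP- cells. At an adjusted p under 0.01 the difference fell for 13 members, and 7 rose in Ebf2-EGFP+ cells. Median-of-ratios scaling left 25 members lower at E13.5. With the replicate block 19 differences rose and 7 members were called in opposite directions; no call between the populations was lost, 1 call within Ebf2-EGFP- cells was (Zfp941), and the other counts stayed within 1.5 times. Between stages of 1 population same-numbered libraries correlated at -0.0421 and 0.165, so the number was not taken as a pairing there.

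Among the genes and comparisons named above, directions reversed for these differences, none of which was called (limma, 2-sided, adjusted p over 0.05 in each). With median-of-ratios scaling these were Zfp664 at E11.5 (0.24), Klf12 (0.24), Zfp292 (0.027), Zfp41 (0.23), Zfp618 (0.032) and Zfp703 (0.025) at E13.5, and Klf12 (0.15), Zfp41 (0.027) and Zfp703 (0.12) at E15.5. Leaving out 1 library gave -0.15 to 0.11 for Zfp664 at E11.5 and -0.19 to 0.034 for Zfp41 at E13.5. At E15.5 it gave -0.27 to 0.20 for Klf12, -0.12 to 0.27 for Zfp423, -0.22 to 0.66 for Zfp428 and -0.49 to 0.32 for Zfp703. A group left with 1 library was assumed to vary like the others. The cause of these moves was not tested.

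Of the values for single named genes, scaling lost 13 calls and only the groups compared lost 6. Leaving out 1 library also lost calls, as given for the genes above, and reversed the direction of 11 results. With a pseudocount of 0.1, 5 members lost the call of a changed difference (Sp5, Sp8, Zbtb46, Zfp367 and Zfp568), with Sp8 at -0.19 and Zfp367 at -0.10 in place of rises. The depth of each library was not used, so no limit set by depth can be given for values under 1 FPKM.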
